A study of Mus musculus with 12 samples.

Results

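The 7 microRNA (miRNA) hairpins studied here are commonly grouped as noncanonical: mir-320, mir-484, mir-877, mir-702, mir-1224, mir-1981 and mir-1306. They were followed from E8.5 to E11.5 in mouse endoderm and early pancreatic cells. They were chosen by number from the names of the entries, which matched 18 of the 1053 entries of the count table, 12 mature arms of 633 and 6 precursors of 420. The rule used the names alone, and the set was drawn up with earlier results of these data known. Small RNA was sequenced from fluorescence-sorted cells in 12 libraries, 3 at each of 4 stages. At E8.5 the genotype was Foxa2-CreER, tdtomato+, and endoderm was marked by a Cre that is expressed from the Foxa2 locus and needs tamoxifen, which the dam received. At the 3 later stages the driver was a Pdx1-Cre transgene, which marks the cells of the pancreatic and duodenal Pdx1 domain and their descendants. In all groups tdTomato, a red fluorescent protein, was switched on by Cre from the Rosa26 locus. The E8.5 cells came from whole embryos and the later cells from the trunk, so a comparison with E8.5 also compares 2 drivers and 2 parts of the embryo. Males of the crosses carried 1 mir-302 allele replaced by eGFP, and the labels do not say which embryos inherited it. Each stage had its own number in the library names, so that any batch behind that number and the stage cannot be told apart.

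Canonical miRNAs are cut from a long primary transcript by the Microprocessor, the nuclear complex of the nuclease Drosha and its RNA-binding partner Dgcr8, and the released hairpin is cut again by Dicer. A mirtron is a short intron that is spliced out, debranched and folded into a hairpin that Dicer can use directly, and mir-877, mir-702, mir-1224 and mir-1981 are counted as mirtrons. The mir-320 hairpin is instead known to be transcribed as a short capped RNA, and mir-484 is placed in the same class. The mir-1306 hairpin lies in the Dgcr8 message, whose hairpins are known as substrates of the Microprocessor, so by this background it belongs to the set by its number and not as a hairpin that bypasses the complex.

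The mature sequences are shown because they carry the seed (bases 2 to 8, in capitals), which guides target choice, and because the first bases of the mirtron 5p arms are the splice donor. They were taken from RefSeq for GRCm38.p6, which matched 11 of the 12 arms, and are written 5′ to 3′.
miR-877-5p: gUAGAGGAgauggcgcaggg
miR-877-3p: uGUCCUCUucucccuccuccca
miR-1224-5p: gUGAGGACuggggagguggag
miR-1224-3p: cCCCACCUcuucucuccucag
miR-1981-5p: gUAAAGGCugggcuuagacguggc
miR-1981-3p: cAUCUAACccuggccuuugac
miR-702-5p: gUGAGUGGggugguuggcaug
miR-702-3p: uGCCCACCcuuuaccccgcucc
miR-484: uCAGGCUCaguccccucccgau
miR-1306-5p: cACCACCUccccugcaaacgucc
miR-1306-3p: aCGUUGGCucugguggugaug
No pair of these arms shared a seed. Only miR-702-5p shared its seed with another entry of the table, miR-3102-5p, which had 162 counts in all.

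The mirtron arms all lay inside short introns, with the 5p arm of each of the 4 starting at the first base of the intron. The hairpin of mir-877, chr17:35960730-35960814 on the minus strand (GRCm38), was the whole 85-base intron of Abcf1, which encodes an ATP-binding cassette protein linked to translation initiation. The hairpin of mir-1224, chr16:20604452-20604536 on the plus strand, was the whole 85-base intron of Vwa5b2. The hairpin of mir-1981, chr1:184822407-184822488 on the minus strand, was the whole 82-base intron of Marc2, a gene for a mitochondrial amidoxime-reducing enzyme. The hairpin of mir-702, chr5:136991433-136991541 on the plus strand, began 9 bases before a 102-base intron of Plod3 and ended 2 bases before the end of that intron. Plod3 encodes a lysyl hydroxylase of collagen. The 3 hairpins that fill an intron are printed with the bases at both intron ends in capitals, the donor GU and the acceptor AG.
Mir877 hairpin: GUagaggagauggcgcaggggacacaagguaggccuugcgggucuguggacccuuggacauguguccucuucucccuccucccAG
Mir1224 hairpin: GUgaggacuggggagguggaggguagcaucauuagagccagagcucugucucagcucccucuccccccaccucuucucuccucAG
Mir1981 hairpin: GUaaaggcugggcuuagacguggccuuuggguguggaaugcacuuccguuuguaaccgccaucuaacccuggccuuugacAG
Of 1005 RefSeq hairpins, 30 (2.99%) start with GU and end with AG, and 16 (1.59%) span an annotated intron from its first to its last base. The other 3 hairpins had other surroundings. Mir484, chr16:14159626-14159692 on the plus strand, lay within the span of Marf1, a gene on the opposite strand. Mir320, chr14:70443510-70443591 on the plus strand, lay 62 bases from the start of Polr3d, a subunit gene of RNA polymerase III that runs the other way. Mir1306, chr16:18284239-18284317 on the minus strand, lay within the span of Dgcr8 on the same strand.

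The 18 entries took between 0.290% and 0.995% of the counts of a library and 30184 counts in all. The mir-320 hairpin held 9758 of these counts (32.3%), mir-877 6725 (22.3%), mir-1306 5346 (17.7%), mir-484 3113 (10.3%), mir-702 2660 (8.81%), mir-1224 1986 (6.58%) and mir-1981 596 (1.97%). The E9.5 libraries were the smallest (53996 to 80075 counts), followed by E10.5 (133435 to 267978), E8.5 (386094 to 594224) and E11.5 (417743 to 1103383). A floor of 3 counts therefore stood for 37.5 to 55.6 CPM (counts scaled to a library of 1000000) at E9.5 and for 2.72 to 7.77 CPM at E8.5 and E11.5. The counts are reads after PCR without molecular identifiers, and every interval given here covers counting error only. In each library the entries above 10 counts gathered around a second level of 31.3 to 117 counts. Of the 216 member values, 51 were at 0, 44 were between 1 and 9, 66 lay between 10 counts and 2 times that second level, and 55 lay above 2 times that level.

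The labelled cell types were compared with their markers. The summed level of the pancreatic and endocrine markers miR-375-3p and miR-7a-5p lay between 24753 and 30580 CPM in E8.5 libraries, between 24798 and 59245 CPM one day later, then between 102660 and 128705 CPM, and between 76655 and 110224 CPM in E11.5 libraries. The early-embryo marker miR-302b-3p went the other way, with 23362 to 39514 CPM in the first stage and 208 to 366 CPM in the last. The hepatic miR-122-5p was at 492 to 660 CPM at E8.5 and at 28391 to 114086 CPM in the 9 Pdx1-Cre libraries. The 2 muscle markers, miR-1a-3p and miR-133a-3p, summed to between 7314 and 29501 CPM in E8.5 libraries, between 5051 and 19668 in those of E9.5, between 232 and 3747 one day later and between 277 and 1445 in the last stage, so that all 6 libraries of the first 2 stages were above all 6 of the last 2. The 3 of 4 erythroid markers in the table stayed between 46.8 and 1379 CPM, the 2 of 3 leukocyte markers between 0 and 1945 CPM with the highest values at E9.5, and the 2 neural markers between 0 and 432 CPM. Their part in the results on the noncanonical hairpins was not tested, and fewer cells of a type and less RNA per cell cannot be told apart in such sorted bulk samples.

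The member called against E8.5 at both later stages was an arm of the Vwa5b2 mirtron. miR-1224-5p had 4 counts or fewer in every library of the first 2 stages and 94 or more in every library of the last 2. Its counts were 1, 2 and 0 in the E8.5 libraries (replicates 1 to 3, the order used throughout), 0, 4 and 1 at E9.5, 316, 125 and 94 at E10.5, and 334, 402 and 156 at E11.5. The lowest library of the later stages held 94 counts and the highest of the earlier stages 4, so that the groups did not overlap. On the scale of CPM after TMM scaling (trimmed mean of M-values), the level was 2.31 ± 2.65 (SD, n = 3) for E8.5, 22.8 ± 21.6 for E9.5, 886 ± 453 for E10.5 and 442 ± 295 for E11.5.

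**Figure D1:**
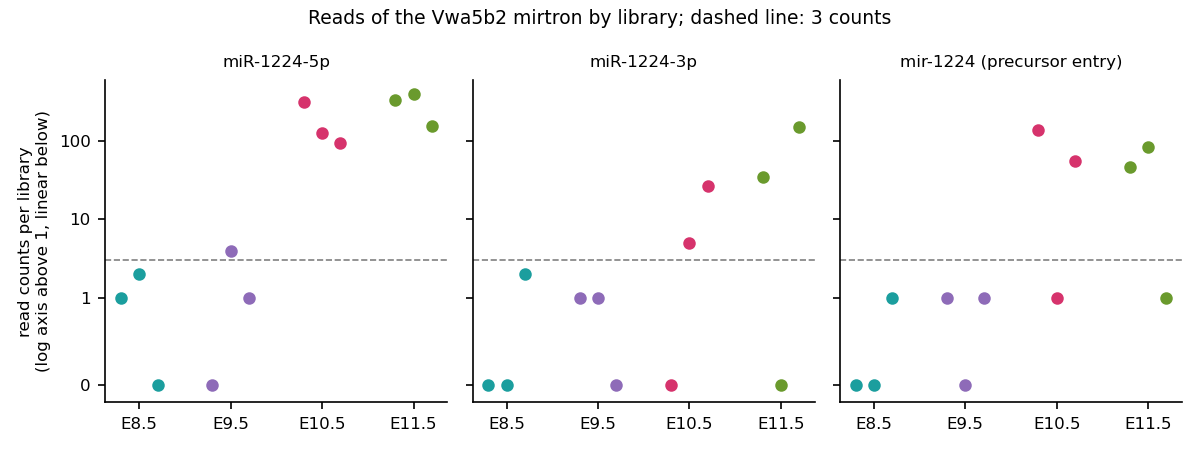
Read counts of the 3 entries of the Vwa5b2 mirtron in each of the 12 libraries by embryonic stage, on an axis that is logarithmic above 1 and linear below, with a dashed line at 3 counts. For miR-1224-5p all 6 libraries of E10.5 and E11.5 sit at 94 counts or more and all 6 earlier libraries at 4 or fewer, while the 3p arm and the precursor entry also have low libraries at the later stages.

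Both comparisons of a later stage with E8.5 called miR-1224-5p, by edgeR's quasi-likelihood test with Benjamini-Hochberg adjustment over all 571 entries tested. It was higher at E10.5 than at E8.5 (log2 fold change 8.52, SE 1.75, adjusted p = 0.00198) and higher at E11.5 than at E8.5 (7.51, SE 1.68, adjusted p = 0.00322), in all 3 libraries each time. These fitted values depend on the prior count, since E8.5 held 3 counts over its 3 libraries. The arm also passed the low-count filter only through the 6 libraries of the later stages, where it was high. The ratio of pooled CPM (counts of a stage summed over its libraries) was 416 for E10.5 over E8.5 (95% counting interval 142 to 2026) and 189 for E11.5 over E8.5 (64.4 to 917). The E8.5 libraries held 386094 counts or more each, above every E10.5 library. Against E9.5, where libraries were shallow, the log2 fold changes of 5.21 (SE 1.54, adjusted p = 0.0566) at E10.5 and 4.21 (SE 1.49, adjusted p = 0.120) at E11.5 did not pass the threshold of 0.05 in edgeR's test, although again every later library was higher than every E9.5 library. The ratios of pooled CPM over E9.5 were 33.0 (14.1 to 102.1) and 14.97 (6.39 to 46.2). From E10.5 to E11.5 the libraries overlapped.

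The partner arm and the precursor entry of the same hairpin were higher at the later stages in part of the libraries. miR-1224-3p had 0, 0 and 2 counts at E8.5, 1, 1 and 0 at E9.5, 0, 5 and 27 at E10.5 and 35, 0 and 150 at E11.5. The precursor entry mir-1224 had 0, 0 and 1 counts at E8.5, 1, 0 and 1 at E9.5, 139, 1 and 56 at E10.5 and 46, 84 and 1 at E11.5. Each of these entries was at 0 or 1 in at least 1 library of both later stages, so that only the 5p arm separated both later stages from both earlier ones in every library. The precursor entry missed the threshold at E10.5 against E8.5 (log2 fold change 8.22, SE 2.62, edgeR adjusted p = 0.0522). It reached 10 counts in 4 libraries only, all of the later stages, and passed the low-count filter through them. In the mature reads of this hairpin the 5p arm took 86.7% (exact 95% binomial interval 84.9 to 88.3%).

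A further mirtron of the set, mir-1981 in Marc2, was also seen mostly at the later stages, and it did not pass the edgeR test in any contrast. miR-1981-5p had 1, 2 and 0 counts at E8.5, 0, 1 and 0 at E9.5, 136, 0 and 0 at E10.5 and 38, 165 and 109 at E11.5. All 3 E11.5 libraries were higher than every earlier library of E8.5 and E9.5, and 1 library alone carried the E10.5 signal. The log2 fold change of E11.5 over E8.5 was 5.63 (SE 2.52, edgeR adjusted p = 0.168), and the ratio of pooled CPM was 66.1 (22.4 to 322). That interval covers counting error only. The counts lay close to the second level of their library, at 1.22, 1.4 and 1.33 times at E11.5 and 1.17 times in E10.5 replicate 1. Among the alternatives, limma voom called this difference (log2 5.78, adjusted p = 0.0135), and the adjusted p was 0.0848 to 0.267 in the others that gave one with all libraries kept. miR-1981-5p reached 10 counts in 4 libraries only, all of the later stages where it was high. It passed the low-count filter through them, so the voom call is no separate support for the difference. At E10.5 against E8.5 the fitted log2 difference of 6.12 (adjusted p = 0.135) turned to -2.97 without E10.5 replicate 1. miR-1981-3p had 0, 0 and 1 counts at E8.5, 1, 29 and 0 at E9.5, 0, 0 and 0 at E10.5 and 16, 94 and 0 at E11.5. The precursor entry mir-1981 held 3 counts in all.

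The Abcf1 mirtron was the most counted mirtron of the set and was present at every stage. miR-877-5p had 527, 600 and 558 counts at E8.5, 5, 55 and 7 at E9.5, 412, 15 and 493 at E10.5 and 454, 566 and 1102 at E11.5. In TMM-scaled CPM this was 1096 ± 405 for E8.5, 284 ± 270 for E9.5, 1213 ± 955 for E10.5 and 965 ± 411 for E11.5 (SD, n = 3). The E9.5 libraries were all below the E8.5 libraries on this scale, a log2 difference of -1.93 (SE 1.01) that did not pass the edgeR test (adjusted p = 0.271), and E10.5 replicate 2, at 130 CPM, stood well below the other E10.5 libraries at 1578 and 1932 CPM. miR-877-3p had 83, 93 and 103 counts at E8.5, 30, 21 and 0 at E9.5, 29, 0 and 39 at E10.5 and 135, 398 and 87 at E11.5. The 5p arm took 82.5% of the mature reads over all libraries, 84.4 to 86.6% in the E8.5 libraries, and from 58.7% to 92.7% at E11.5, where replicate 2 was the low one. In E9.5 replicate 1 the 5p arm took 14.3% of 35 reads (exact 95% interval 4.81 to 30.3%).

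The Plod3 mirtron was counted on its 3p arm. miR-702-3p had 312, 218 and 617 counts at E8.5, 81, 46 and 7 at E9.5, 224, 1 and 227 at E10.5 and 151, 312 and 344 at E11.5. In TMM-scaled CPM this was 669 ± 198 for E8.5, 665 ± 591 for E9.5, 585 ± 500 for E10.5 and 350 ± 64.6 for E11.5 (SD, n = 3). All E11.5 libraries were below all E8.5 libraries (log2 difference -0.93, SE 1.14), without passing the edgeR test (adjusted p = 0.789). miR-702-5p was at 0 in 9 of 12 libraries and had 38 counts in E8.5 replicate 2, 1 in E10.5 replicate 3 and 81 in E11.5 replicate 3. Its share of the mature reads was thus 4.51% (exact 95% interval 3.75 to 5.37%), against 76.2% to 86.7% for the 5p arms of the other 3 mirtrons.

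**Figure D2:**
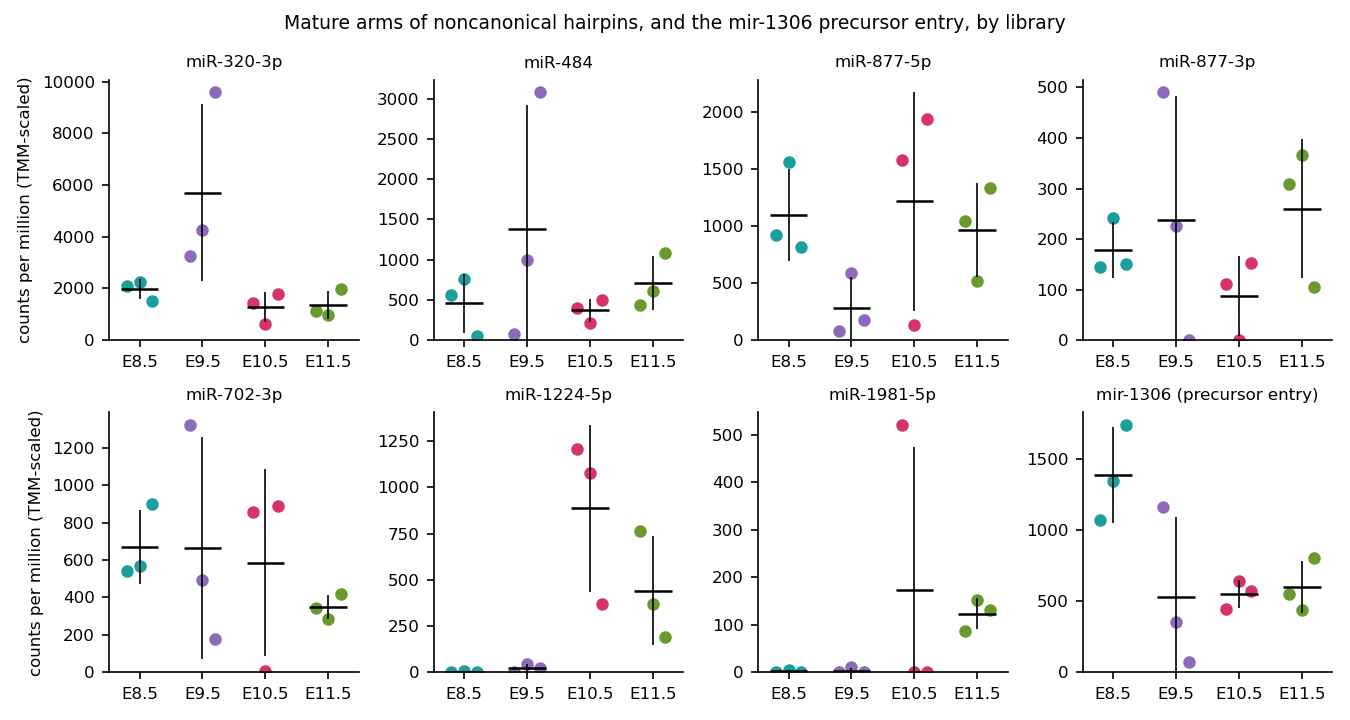
TMM-scaled CPM of 7 mature arms and of the mir-1306 precursor entry in each library by stage, each panel on its own linear axis from 0, with points for libraries, horizontal bars for the mean and vertical bars for 1 SD (n = 3, cut at 0). miR-1224-5p is near 0 at E8.5 and E9.5 and at 189 to 1210 CPM later, miR-320-3p is highest in the 3 E9.5 libraries, and mir-1306 is higher in all 3 E8.5 libraries than at E10.5 and E11.5.

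Among the capped hairpins, miR-320-3p was the most counted arm of the whole set and was highest at E9.5. mmu-miR-320-3p had 1213, 870 and 1053 counts at E8.5, 200, 395 and 378 at E9.5, 374, 72 and 453 at E10.5 and 489, 1066 and 1648 at E11.5. In TMM-scaled CPM the libraries stood at 2110, 2261 and 1531 at E8.5, 3268, 4243 and 9615 at E9.5, 1432, 622 and 1775 at E10.5, and 1121, 981 and 1994 at E11.5. The 3 E9.5 libraries were above all 9 others on this scale, and the libraries of the other stages overlapped, with means of 1968 ± 385, 1277 ± 592 and 1365 ± 549 (SD, n = 3) for E8.5, E10.5 and E11.5 and 5709 ± 3418 for E9.5.

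The joint test across the 4 stages called miR-320-3p (edgeR adjusted p = 0.0317), but none of the single contrasts did. From E8.5 to E9.5 its log2 fold change came to 1.54 (SE 0.63, adjusted p = 0.199). It was -2.16 (SE 0.65, adjusted p = 0.0592) from E9.5 to E10.5 and 0.10 (SE 0.62, adjusted p = 0.990) from E10.5 to E11.5. DESeq2 called both contrasts with E9.5 (adjusted p = 0.00173 and 0.000112), and in the 11 alternatives with no library left out their adjusted p ran from 0.00173 to 0.569 and from 0.000112 to 0.354. Without E9.5 replicate 3 the joint adjusted p was 0.260, and leaving out each of 6 other libraries (the 3 of E8.5, E10.5 replicate 2, and E11.5 replicates 1 and 2) also ended the call, with adjusted p between 0.0615 and 0.0739. The call also ended with library size alone, limma voom, counts under 10 set to 0, the replicate block and counts scaled by the second level of their library, with adjusted p between 0.0528 and 0.173. The E9.5 libraries were the shallowest, and their scaling bears on this: the median log2 difference of all entries from E8.5 to E9.5 was -0.84 with TMM, -0.21 with the RLE factors that DESeq2 uses and -1.10 with library size alone. miR-320-3p stayed higher at E9.5 than at E8.5 under each of these. By Spearman correlation over the 12 libraries, the 3 entries of 570 whose TMM-scaled log2 CPM was most like that of miR-320-3p were miR-1a-3p (0.846), miR-186-5p (0.811) and miR-6944-3p (0.804). These are descriptions over libraries that share depth and stage. miR-1a-3p is a muscle marker, and the summed muscle markers lay at 5051 to 19668 CPM in the E9.5 libraries, where miR-320-3p was highest. They lay at 7314 to 29501 CPM at E8.5, where miR-320-3p was lower, at 232 to 3747 CPM at E10.5 and at 277 to 1445 CPM at E11.5. Nearly all of the sum was miR-1a-3p, with 30472 counts in all against 132 for miR-133a-3p, the other of these muscle markers. The part of the muscle markers in the level of miR-320-3p was not tested.

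The precursor entry mir-320 had 251, 144 and 217 counts at E8.5, 71, 22 and 5 at E9.5, 22, 1 and 74 at E10.5 and 133, 114 and 493 at E11.5. All E10.5 libraries were below all E8.5 libraries in CPM (log2 difference -1.54, SE 1.30, edgeR adjusted p = 0.4999). mmu-miR-484 had 324, 293 and 35 counts at E8.5, 5, 93 and 121 at E9.5, 103, 25 and 128 at E10.5 and 191, 669 and 896 at E11.5. Its spread within a stage was wide, from 81.7 to 3078 TMM-scaled CPM at E9.5 and from 50.9 to 761 CPM at E8.5, and no contrast separated the stages. The precursor entry mir-484 had 2, 0 and 44 counts at E8.5, 0, 1 and 0 at E9.5, 2, 5 and 0 at E10.5 and 1, 122 and 53 at E11.5.

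The Dgcr8 message hairpin was counted mostly as its precursor entry. mmu-mir-1306 had 615, 518 and 1195 counts at E8.5, 71, 33 and 3 at E9.5, 116, 74 and 145 at E10.5 and 241, 479 and 661 at E11.5. In TMM-scaled CPM the E8.5 libraries stood at 1070 to 1738, the E9.5 libraries at 76.3 to 1160, the E10.5 libraries at 444 to 639 and the E11.5 libraries at 441 to 800. The E8.5 libraries were above all those of E10.5 and E11.5, and the log2 differences from E8.5 of -1.33 for E10.5 and -1.21 for E11.5 did not pass the edgeR test (SE 0.94 for both, adjusted p = 0.408 and 0.588). When each count was divided by the second level of its library, mir-1306 was called lower at E11.5 than at E8.5 (log2 -1.33, adjusted p = 0.0453) and across the 4 stages (adjusted p = 0.0385). No other alternative made either call. For E11.5 against E8.5 the adjusted p was 0.0889 (limma voom) to 0.863 (counts under 10 set to 0) in the others that kept all libraries. miR-1306-3p had 71, 195 and 67 counts at E8.5, 0, 1 and 2 at E9.5, 34, 1 and 2 at E10.5 and 67, 64 and 58 at E11.5. miR-1306-5p had 63, 73 and 64 counts at E8.5, 0, 1 and 6 at E9.5, 1, 1 and 0 at E10.5 and 0, 241 and 183 at E11.5. The 5p arm was thus at 0 in 1 E11.5 library and took 79.0% and 75.9% of the mature reads in the others, so that the arms did not keep 1 ratio.

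Of the 18 members, 16 passed the filter on low counts and were tested, all but miR-702-5p and mir-1981. At E11.5 against E8.5, 1 of the 16 was called and higher, where 11.6% of all entries tested were called and 5.25% were called higher. At E10.5 against E8.5, 1 was called and higher, against 8.58% of all entries, 4.38% higher. In both cases it was miR-1224-5p. No member was called at E9.5 against E8.5 (5.6% of all entries), at E10.5 against E9.5 (4.38%), at E11.5 against E10.5 (0.35%) or at E11.5 against E9.5 (4.55%) by edgeR. In that order, 3, 3, 2 and 2 of the 16 members had an unadjusted p under 0.05, against 20%, 18.2%, 10.7% and 18.4% of all entries. DESeq2 called 2, 2, 0 and 2 members, against 20.7%, 16.9%, 1.51% and 13.9% of the entries to which it gave an adjusted p. Across the 4 stages 2 members were called, miR-1224-5p (adjusted p = 0.00199) and miR-320-3p, against 15.9% of all entries. These comparisons share libraries and are not independent of each other.

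Counted by libraries that did not overlap between 2 stages, the 16 tested members were set beside all entries tested. From E8.5 to E9.5, miR-320-3p was higher and miR-877-5p and miR-1306-3p were lower in every library (of all entries, 34.3% did not overlap, 6.83% higher and 27.5% lower). At E10.5 against E8.5, miR-1224-5p and mir-1224 were higher and miR-1306-5p, mir-1306 and mir-320 lower (36.6%, of which 13% higher and 23.6% lower, as percent of all entries). At E11.5 against E8.5, miR-1224-5p and miR-1981-5p were higher and mir-1306 and miR-702-3p lower (38.5%, with 17.3% higher and 21.2% lower). From E9.5 to E10.5, miR-1224-5p was higher and miR-320-3p lower (15.8%, with 8.76% higher and 7.01% lower), from E10.5 to E11.5 no member separated (13.5%), and at E11.5 against E9.5, miR-1224-5p, miR-1981-5p and miR-1306-3p were higher and miR-320-3p lower (22.6%, with 16.6% higher and 5.95% lower). The median log2 difference of the 16 members was 0.53 at E9.5 against E8.5, where that of all entries was -0.84, with 10 of the 16 above 0 against 37.7% of all entries. It was -0.39 at E10.5 against E8.5 (all entries -0.26), 0.36 at E11.5 against E8.5 (-0.067), -0.011 at E10.5 against E9.5 (0.17), 0.46 at E11.5 against E10.5 (0.073) and 0.83 at E11.5 against E9.5 (0.66).

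Precursor and mature shares were set side by side as the precursor entry's percent of all counts of its hairpin. The reads had been kept at 17 to 35 or 36 bases, which is shorter than any of the 7 hairpins (67 bases or more), so a precursor entry holds reads within a hairpin and not whole hairpins. How a read is divided between a precursor and its arms is not given in the sources used here. The mir-320 hairpin has a 3p entry alone and mir-484 a single mature entry, while mir-877, mir-1224, mir-1981 and mir-1306 have both arms. Reads of an arm without an entry cannot count as mature, so these shares are not fully comparable. Over all libraries the share was 77.6% for mir-1306 (exact 95% interval 76.5 to 78.8%), 16.6% for mir-1224 (15.004 to 18.3%), 15.9% for mir-320 (15.1 to 16.6%), 13.6% for mir-877 (12.8 to 14.4%), 7.39% for mir-484 (6.49 to 8.36%) and 0.503% for mir-1981. The median over the 287 hairpins of the table with 100 or more counts was 8.51%, with quartiles of 3.25% and 29.1%. Arms were matched to precursors by name, so an arm shared by numbered copies of a hairpin was left out. This raised the share of such copies: mir-7a-1 and mir-7a-2, hairpins of the marker miR-7a-5p (156827 counts), stood at 99.8% and 97.8%. The quartiles and the ranks that follow, that of mir-1306 above all, include such copies. Neither mirtrons nor capped hairpins stood at 1 end of this order: mir-1224, mir-320 and mir-877 lay above the median with 102, 103 and 113 hairpins above them, mir-484 and mir-1981 lay below it with 153 and 268 above, and mir-1306 had 20 above. Summing counts gives the deep libraries more weight, and the order depends on it. As a mean over libraries with 10 or more counts of the hairpin, a measure chosen after seeing the data, the share was 21.3% ± 24.04 for mir-877 and 13.02% ± 8.42 for mir-320 (SD, n = 12 libraries), with 87 and 125 hairpins above them, and 15.3% ± 13.8 for mir-1224 (SD, n = 6 libraries), with 111 above. mir-702 has no precursor entry in the table.

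**Figure D3:**
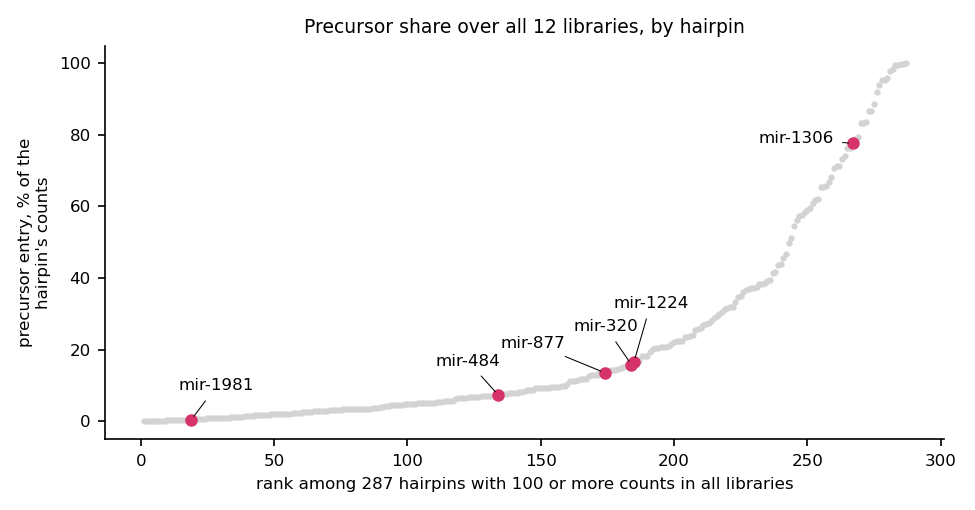
Precursor entry's percent of a hairpin's counts, pooled over the 12 libraries, for 287 hairpins in rising order, with the 6 member hairpins in colour and the others in grey. Arms shared by numbered copies of a hairpin are left out, which raises the share of such copies. mir-1306 at 77.6% is near the upper end, mir-1224, mir-320 and mir-877 lie together at 13.6 to 16.6%, and mir-1981 at 0.503% is near the lower end.

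Within a hairpin the share differed widely between replicates of a stage. For mir-320 it was 17.1%, 14.2% and 17.1% at E8.5, 26.2%, 5.28% and 1.31% at E9.5, 5.56%, 1.37% and 14.04% at E10.5, and 21.4%, 9.66% and 23.0% at E11.5. The E8.5 libraries lay close together, and those of E9.5 spanned the whole range. For mmu-mir-877, the precursor entry of the Abcf1 mirtron (60, 38 and 202 counts at E8.5, 1, 55 and 6 at E9.5, 13, 61 and 40 at E10.5 and 40, 341 and 56 at E11.5), it was 8.96%, 5.20% and 23.4% at E8.5, 2.78%, 42.0% and 46.2% at E9.5, 2.86%, 80.3% and 6.99% at E10.5, and 6.36%, 26.1% and 4.50% at E11.5. The exact intervals of the high and low libraries at E10.5, 69.5 to 88.5% in replicate 2 and 1.53 to 4.85% in replicate 1, were far apart. These intervals cover counting error only and not amplification. In replicate 2 the 61 precursor reads were 1.01 times the second level of that library and the 15 reads of miR-877-5p 0.249 times. In replicate 1 the 13 precursor reads stood at 0.112 times and the 412 reads of miR-877-5p at 3.55 times. For mir-1306 it was 82.1%, 65.9% and 90.1% at E8.5, 100%, 94.3% and 27.3% at E9.5, 76.8%, 97.4% and 98.6% at E10.5, and 78.2%, 61.1% and 73.3% at E11.5. In 11 of 12 libraries the precursor entry of mir-1306 outnumbered its arms, the exception being E9.5 replicate 3, which had 11 counts of this hairpin.

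**Figure D4:**
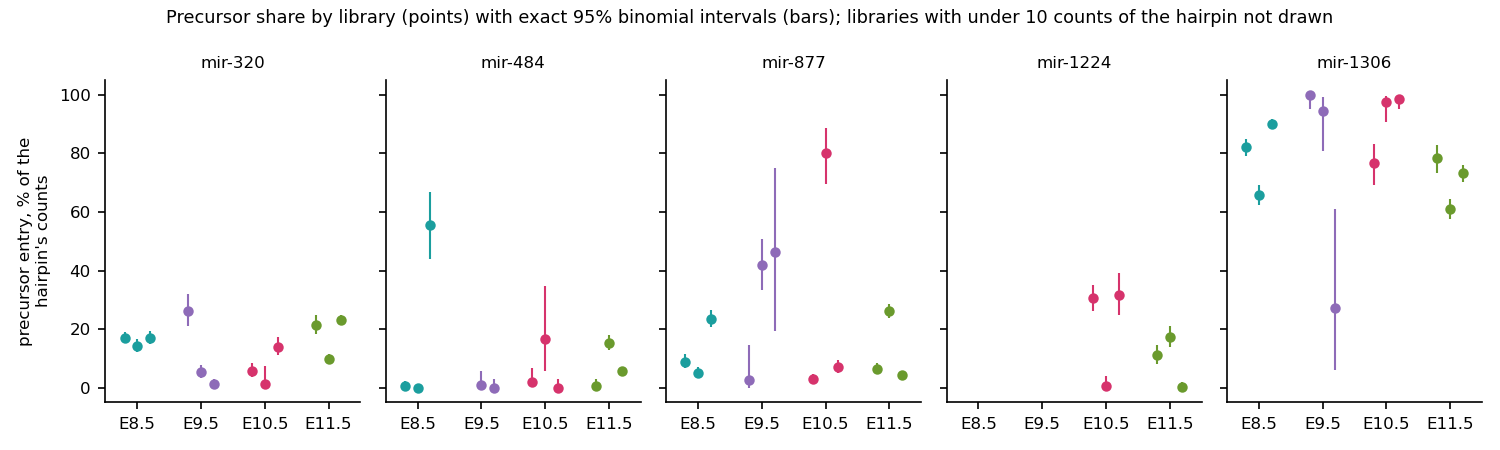
Precursor entry's percent of the counts of 5 member hairpins in each library by stage, with exact 95% binomial intervals as bars, on axes from 0 to 100% (libraries with under 10 counts of the hairpin are not drawn). The mir-1306 points lie at 61.1% or more in 11 of 12 libraries, and mir-877 reaches 80.3% in E10.5 replicate 2 beside 2.86% and 6.99% in the other libraries of that stage.

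Across the 4 stages the share did not pass the exact permutation test over the 15400 partitions of the 12 libraries for any of the 3 members with 10 or more counts in every library. The two-sided p was 0.408 for mir-320 (0.821 after Benjamini-Hochberg adjustment over the 84 hairpins tested), 0.768 for mir-877 (adjusted 1) and 0.760 for mir-1306 (adjusted 1). Of the 84 hairpins, 9 had an unadjusted p under 0.05 and none passed after adjustment. Arms were matched to precursors by name here as well, without arms shared by numbered copies. mir-484, mir-1224 and mir-1981 did not reach the minimum and were not tested. For mir-484 the share was 55.7% in E8.5 replicate 3 and 0.613% and 0% in the other E8.5 libraries, where 293 mature reads and no precursor read in replicate 2 allow up to 1.25% (exact interval). For mir-1224 it was 30.5%, 0.763% and 31.6% at E10.5 and 11.1%, 17.3% and 0.326% at E11.5, with too few reads at the earlier stages to give a share. All members as a sum had a precursor share of 29.6% ± 9.06 for E8.5, 16.1% ± 14.1 for E9.5, 23.2% ± 11.7 for E10.5 and 20.8% ± 1.43 for E11.5 (SD, n = 3), and without mir-1306 of 11.9% ± 4.26, 10.501% ± 8.08, 14.1% ± 6.73 and 12.5% ± 2.44. The Dgcr8 message hairpin held 2328 of the 3287 precursor counts of the set at E8.5 (70.8%), 107 of 270 at E9.5 (39.6%), 335 of 750 at E10.5 (44.7%) and 1381 of 2867 at E11.5 (48.2%).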

How the data were processed

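The deposited table held raw counts of reads for each mature and precursor miRNA, in 1 column per library and without normalisation by the authors. Per the methods of the study, reads were processed with the COMPSRA pipeline, aligned with STAR to mm10 and counted. Per the file headers, reads of 17 to 35 bases were kept in 10 libraries and of 17 to 36 bases in 2. Library names in the sample descriptions gave each column its stage.

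The whole table was fitted with edgeR 4.0.16 (R 4.3.3): quasi-likelihood F-tests, TMM factors (0.733 to 1.17), stage as the only factor, entries kept by filterByExpr (minimum count 10, minimum total 15), and Benjamini-Hochberg adjustment over 571 entries, with 0.05 as the threshold. P-values measure the spread between libraries. Common biological variation was high (coefficient 1.19). Precursor shares were tested by exact permutation in Python 3.11.15. The steps were tested on simulated data. DESeq2 1.42.0, limma 3.58.1 (voom), other scalings, filters and left-out libraries were alternatives. Every member is named. Fold changes are given where a member was called and for miR-320-3p between adjacent stages. Chosen after their values were seen, they are also given for some members whose libraries did not overlap, but not for all. Other entries are named by shared seed, by likeness to miR-320-3p, or from a list of other noncanonical miRNAs and a list of cell type markers. The members and lists were chosen with earlier results of these data known. Genes and introns came from GENCODE vM21 (GRCm38) and miRNA sequences from RefSeq (GRCm38.p6).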

Additional observations from a re-analysis of the deposited data

How the results depend on the processing

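The calls of miR-1224-5p at E10.5 and E11.5 against E8.5 were kept in all 11 alternatives that kept all libraries, with log2 fold changes of 4.90 to 11.27 and 4.64 to 10.47. Both ends of each range came from counts under 10 set to 0 and counts divided by the second level. Those 2 settings turn every count of this arm at E8.5 and E9.5 to 0 in advance, so they do not test the calls. All 12 alternatives that left out 1 library also kept them, with 7.90 to 9.57 and 6.91 to 8.54. The arm reached 10 counts in 6 libraries only, those of the later stages, and passed the low-count filter through them. No alternative called a member at E11.5 against E10.5. Other counts of members called moved, and the causes were not tested. The share of all entries called under an alternative is given for DESeq2 alone, and only in the contrasts where edgeR called no member. Without that share, the counts below do not show whether members were called more often than other entries. At E9.5 against E8.5, RLE factors called 1 member and DESeq2 2. At E10.5 against E9.5, RLE factors, no filter, a filter of 10 counts in 6 or more libraries and counts under 10 set to 0 called 1 each, DESeq2 and the fit on mature entries 2 each, and leaving out 1 library 0 to 1 (1 without E9.5 replicate 1 or 2, E10.5 replicate 3 or E11.5 replicate 3). At E11.5 against E9.5, RLE factors, the stricter filter, the fit on mature entries and counts under 10 set to 0 called 1 each, DESeq2 2, and leaving out 1 library 0 to 1 (1 without E9.5 replicate 1 or 2 or E10.5 replicate 1). At E11.5 against E8.5, DESeq2 (with mir-1224), limma voom (with miR-1981-5p) and counts divided by the second level (with mir-1306) called 2 each, and at E10.5 against E8.5, DESeq2 and voom called 2 each, with 1 to 2 when 1 library was left out (2 without E10.5 replicate 2). Across the 4 stages, library size alone, voom, counts under 10 set to 0 and the replicate block called 1 (miR-1224-5p), DESeq2 3, and leaving out 1 library 1 to 2. Counts divided by the second level also called 2 there, but lost miR-320-3p (adjusted p = 0.105) and gained mir-1306 (adjusted p = 0.0385). miR-320-3p passed at E9.5 against E8.5 with RLE factors (log2 2.28, adjusted p = 0.0278) and DESeq2, and its difference from E10.5 to E11.5 turned to -0.093 with RLE factors, -0.095 with DESeq2, -0.17 without E10.5 replicate 2 and -0.25 without E11.5 replicate 3 (range without 1 library -0.25 to 0.43). miR-1981-5p at E10.5 against E8.5 turned to -2.97 without E10.5 replicate 1 (range without 1 library -2.97 to 7.16).

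Replicate numbers did not pair the libraries: correlations of deviations from the stage means were -0.13 to 0.13 for equal and -0.15 to 0.14 for unequal numbers. With the replicate block the joint adjusted p of miR-320-3p was 0.0528, and the block changed no other call. No alternative called the precursor share of mir-320, mir-877 or mir-1306, while over all hairpins tested log-odds called 1, and 4 were called without E8.5 replicate 1 and 1 each without E9.5 replicate 1, E9.5 replicate 3 or E11.5 replicate 1. As a mean over libraries in place of summed counts, chosen after seeing the data, the shares of the 6 member hairpins moved by less than 1 SD between libraries. That SD was wide, 24.04 points for mir-877 and 20.75 for mir-1306, so this yardstick could hardly show a move. The share of mir-877 went from 13.6% to 21.3%, with 113 and then 87 hairpins above it. With a minimum of 20 counts in every library, mir-877 and mir-1306 gave no value. At E9.5 the floor of up to 55.6 CPM limits what can be said of weakly counted members.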

Other observations

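Other hairpins that fill an intron were read as well. Of the 16 RefSeq hairpins that span an annotated intron exactly, 9 have entries in the table, 3 of them members, and the other 6 hairpins have 11 entries. Most were counted in few libraries: 10 of these 11 entries held 1 to 100 counts in all. The exception, named after its values were seen, was miR-6944-3p, from an intron of Dbn1, a gene for an actin-binding protein. It had 277, 279 and 393 counts at E8.5, 172, 67 and 147 at E9.5, 70, 46 and 80 at E10.5 and 108, 332 and 711 at E11.5, and missed the threshold across the 4 stages (edgeR adjusted p = 0.0519).

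Noncanonical miRNAs of other kinds were counted unevenly. The highest was miR-1983, whose gene overlaps a tRNA gene, with 12499 counts and a precursor entry of 4296. miR-1839-5p, from a snoRNA-related gene, had 2, 2 and 111 counts at E8.5, 0, 4 and 2 at E9.5, 176, 58 and 0 at E10.5 and 139, 342 and 296 at E11.5, with a precursor entry of 150 counts. miR-664-3p had 98 of its 99 counts in E10.5 replicate 1, and the precursor mir-664 had 1. miR-451a, which is cut by Ago2 in place of Dicer and marks erythroid cells, had 25 counts in all, 20 of them in E10.5 replicate 3. Of these entries 3 were tested (miR-1983, its precursor and miR-1839-5p), and 0 were called by edgeR in any contrast, with 0 at an unadjusted p under 0.05. The mature arm miR-3618-3p, of another hairpin in the Dgcr8 message that holds mir-1306, had 1 count.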
